A study of Homo sapiens with 15 samples.

Results

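NRF2, the product of NFE2L2, is the transcription factor that switches on the antioxidant and detoxifying genes of the cell, and 10 genes of this system were followed here in HCT116 cells, a line from a human colorectal carcinoma. The 10 were taken by name and not by a limit on their values, but earlier results of these data were known. They are NFE2L2 itself, its repressor KEAP1 and 8 target genes (NQO1, HMOX1, GCLC, GCLM, SLC7A11, TXNRD1, SRXN1 and OSGIN1), out of 60664 genes in the expression table. Cells labelled as wild type were left untreated or were exposed for 72 h to 0.0154 mg/mL of hydroxytyrosol (HTyr), the main phenol of olive residues, or to the same concentration of an extract of olive oil production waste products, made from Apulian (AE), Tuscan (TE) or Sicilian (SE) material. Each of the 5 groups had 3 libraries of poly(A) RNA, 15 in all, from 1 established line. The sample titles of TE and SE carry a bracketed code whose letter is the initial of the other region, while the title text, the descriptions and the column names agree among themselves and were followed. In the supplement of the study, the libraries named TE and SE hold the same values as here, for all 1539 genes held. If the codes were right against these labels, every TE and SE value given here would change places.

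In unstressed cells KEAP1 binds NRF2 and hands it to a ubiquitin ligase, so that the protein is destroyed as fast as it is made. Electrophiles and oxidants modify cysteines of KEAP1, NRF2 then accumulates without any need for more of its mRNA, and it binds with a small MAF protein to antioxidant response elements (AREs) near its targets. The targets supply glutathione and thioredoxin, reduce quinones and break down haem. In colorectal tumours as in other epithelia the pathway is known both for protection against oxidants and for resistance to drugs.

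The sequences through which NRF2 is known to act share the core TGACNNNGC, and the copies nearest to the genes below are shown as the context in which these genes are read. The core was searched on both strands in the 1000 bases before each transcription start of RefSeq, and the starts of 8 of the 10 genes were matched (not HMOX1 and SLC7A11). Each line gives 29 bases of GRCh38, 5′ to 3′ on the strand named, with the core in capitals.
NQO1, chr16:69726997-69727025, minus strand, 455 bases before the start: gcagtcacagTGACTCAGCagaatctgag
GCLM, chr1:93909446-93909474, plus strand, 34 bases before the start: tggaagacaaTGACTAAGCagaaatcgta
KEAP1, chr19:10502784-10502812, plus strand, 31 bases before the start: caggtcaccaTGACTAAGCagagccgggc
TXNRD1, chr12:104215670-104215698, plus strand, 99 bases before the start: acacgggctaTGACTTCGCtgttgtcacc
OSGIN1, chr16:83952673-83952701, plus strand, 557 bases before the start: agacaatctgTGACTTGGCcccagttttc
GCLC, chr6:53545953-53545981, plus strand, 870 bases before the start: aaatatgtgtTGACAGAGCaatgacctgt
By GENCODE 44 the NQO1 copy lies in an exon of the divergent transcript NQO1-DT, the GCLM and KEAP1 copies lie in untranslated or non-coding exons of those genes, the OSGIN1 and GCLC copies lie in introns of those genes, and the TXNRD1 copy lies in no annotated gene. A core was found before 7 of the 11 starts of the 8 genes, which belong to 6 genes, and before none of the starts of NFE2L2 and SRXN1. Of all 35116 starts searched, 31.9% had one, so a match to these letters is frequent and is a description of the window, not a binding site.

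Values were in TPM, a transcript abundance that is corrected for length and states each gene as a share of its library. They keep no depth, so no counting error can be given, and in a bulk sample fewer cells of one kind and less RNA per cell cannot be told apart. Libraries had 13653 to 14034 genes at 1 TPM or more, and mitochondrially encoded genes held 15.6% to 21.5% of the TPM. Of 8 epithelial markers 7 were expressed in every library (VIL1 was the exception), and their sum was lower after treatment, at 4641 to 4735 TPM untreated, 2853 to 3019 after AE, 3141 to 3246 after TE, 2529 to 2691 after SE and 3154 to 3484 after HTyr. The 5 leukocyte markers summed to 16.5 to 17.4 TPM untreated, 1.67 to 3.08 after AE, 4.58 to 6.06 after TE, 2.60 to 3.56 after SE and 5.60 to 6.88 after HTyr. That sum was nearly all CD68, a lysosomal protein that is not restricted to leukocytes (1.58 to 17.3 TPM), while the defining leukocyte gene PTPRC stood at no more than 0.04 TPM. The fibroblast and endothelial lists summed to at most 8.98 and 0.62 TPM, and the part of any of these markers in the values below was not tested. Libraries of a group are labelled as biological replicates, but how their cultures were made is not stated, and p-values therefore reflect library-to-library spread, part of which may be technical.

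All 10 genes reached at least 1 TPM in at least 3 libraries and were tested among 14899 genes in 1 limma fit on log2(TPM + 0.5). A gene is said to rise or fall when its Benjamini-Hochberg adjusted p over all genes was under 0.05 and its change was over 1.5-fold in either direction. After AE, 5 of the 10 rose and none fell, against 10.7% of all genes tested that rose, 5.81% that fell and 16.6% that passed in either direction. At an unadjusted p under 0.05, 8 were higher and none lower after AE. The share of all genes at this unadjusted cut was not counted, here or below, so such counts have no background beside them. After TE, 3 rose and 1 fell (12.7% of all genes passed, 7.46% upward and 5.26% downward), and after HTyr the counts were again 3 and 1 (16.2% of all genes passed, 7.80% upward and 8.45% downward). After SE, 4 rose and none fell, against 17.0% of all genes that rose, 11.0% that fell and 28.0% that passed, and at an unadjusted p under 0.05 the counts were 6 higher and 2 lower.

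The median log2 fold change of the 10 genes was 0.56 after AE, against 0.09 over all genes, and 0.25 after SE, against 0.09. After TE it was 0.19 against 0.05, and after HTyr -0.04 against -0.04. The 3 treated libraries did not overlap the 3 untreated ones for 8 of the 10 genes after AE (48.9% of all genes did not overlap), for 8 after TE (46.7%), for 8 after SE (57.5%) and for 9 after HTyr (48.4%). The genes that did not overlap were all higher after AE, but 3 after TE, 2 after SE and 5 after HTyr were lower than in untreated cells. The 4 comparisons share the same untreated libraries, and the genes that rose with every treatment were NQO1, HMOX1 and GCLM.

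**Figure D1:**
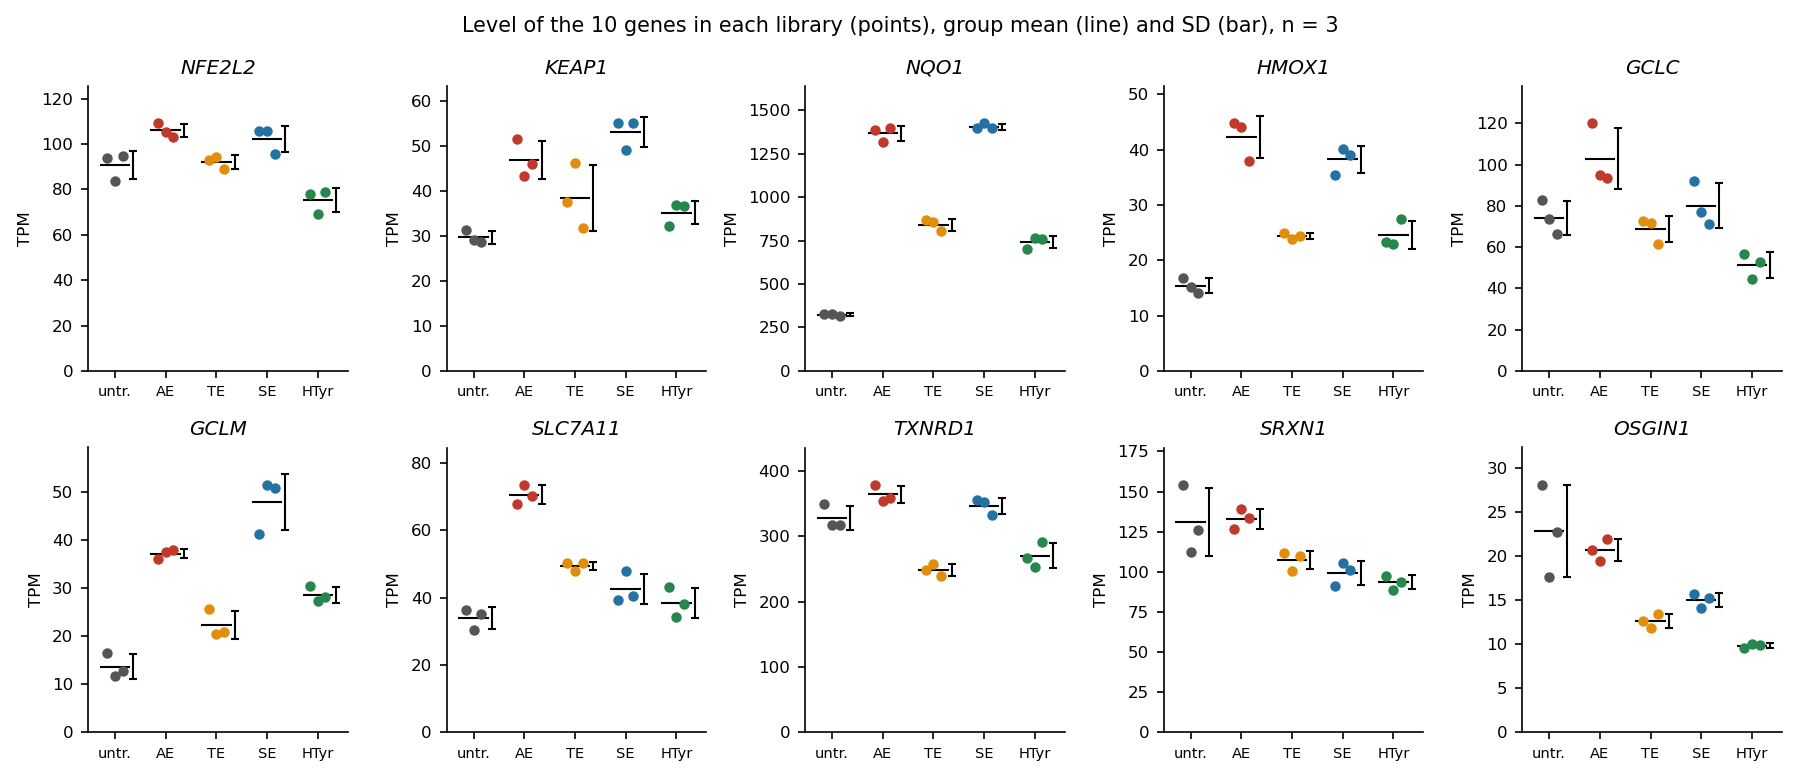
Level of each of the 10 genes in TPM (vertical axis, from 0) in each of the 15 libraries, by group. Points are libraries, horizontal lines are group means of 3 libraries and bars are SD. NQO1, HMOX1 and GCLM stand above the untreated libraries in every treated library, while NFE2L2 stays between 69.3 and 109 TPM in all 15.

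The mRNA of NFE2L2 (ENSG00000116044, chromosome 2, 177218667 to 177392756, minus strand), the activator itself, passed the test with no treatment. Its level was 93.7, 83.8 and 94.9 TPM in the untreated libraries, 109, 105 and 103 after AE, 93.1, 94.5 and 88.8 after TE, 106, 106 and 95.8 after SE, and 77.9, 69.3 and 79.0 after HTyr. All AE and SE libraries lay above the untreated ones, all HTyr libraries lay below them, and the TE libraries overlapped them. The log2 fold changes were 0.22 after AE (95% interval 0.08 to 0.37, adjusted p = 0.016 by limma) and 0.17 after SE (interval 0.03 to 0.31, adjusted p = 0.042), which are below the fold limit. After HTyr the value was -0.27 (interval -0.41 to -0.12, adjusted p = 0.0059). The gene is overlapped on the opposite strand by HNRNPA3, at 182 to 431 TPM, and AGPS, at 32.2 to 50.4 TPM. The library kit marks the strand, but no source used here says whether the quantification used it.

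KEAP1 (ENSG00000079999, chromosome 19, 10486125 to 10503558, minus strand), the adaptor that presents NRF2 for degradation, rose after AE and SE. Its level was 31.3, 29.1 and 28.8 TPM untreated, 51.5, 43.3 and 45.9 after AE, 37.6, 46.3 and 31.7 after TE, 55.0, 49.2 and 55.1 after SE, and 32.2, 36.8 and 36.6 after HTyr. Every treated library lay above every untreated one, and TE had the widest spread. The log2 fold change was 0.83 after SE (standard error 0.11, adjusted p = 3.6e-05 by limma) and 0.65 after AE (standard error 0.11, adjusted p = 0.00052). The call for AE was lost under median-ratio scaling (0.55), under quantile normalization (0.58) and without AE replicate 1 (0.58). After TE the value was 0.35 (95% interval 0.11 to 0.60) and after HTyr 0.24 (interval -0.01 to 0.48), neither past the fold limit.

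Set against each other within a library, the activator and its repressor gave an NFE2L2 to KEAP1 ratio of TPM of 3.06 ± 0.216 (SD, n = 3) in untreated cells. The ratio was 2.27 ± 0.158 after AE, 2.44 ± 0.380 after TE, 1.93 ± 0.204 after SE and 2.15 ± 0.270 after HTyr (n = 3 each). All 12 treated libraries lay below all 3 untreated ones, a mean difference of -0.49 on the log2 scale (exact permutation test, two-sided, p = 0.0044, adjusted over 3 ratios p = 0.0044, the smallest this design can give). A ratio of this kind does not change when all values of a library are multiplied by 1 factor, but quantile normalization can change it.

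NQO1 (ENSG00000181019, chromosome 16, 69706996 to 69726668, minus strand), a quinone reductase whose promoter copy of the core is shown above, had the largest fold changes of the 10 genes. The untreated libraries held 327, 328 and 316 TPM. The AE libraries held 1384, 1317 and 1399.7 and the SE libraries 1396, 1425 and 1396, while the TE libraries held 866, 855 and 803 and the HTyr libraries 699.6, 766 and 757. The groups fell on 3 levels, with untreated cells lowest, HTyr and TE in the middle, and AE and SE on top. The gene rose with every treatment, by 2.08 on the log2 scale after AE, 2.12 after SE, 1.38 after TE and 1.19 after HTyr. The 2 upper groups overlapped (SE against AE 0.04 on the log2 scale, 95% interval -0.06 to 0.14). TE lay above HTyr in every library, by 0.18 (interval 0.08 to 0.29, adjusted p = 0.052), which did not pass. The mean of the 4 treatments was higher by 1.69 on the log2 scale (adjusted p = 6.9e-12 by limma, standard error 0.037), where 17.9% of all genes passed, 10.4% upward and 7.43% downward.

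HMOX1 (ENSG00000100292, chromosome 22, 35380361 to 35394214, plus strand), the inducible haem oxygenase, also rose with each treatment from a much lower level. It stood at 16.8, 15.3 and 14.2 TPM untreated, at 44.8, 44.1 and 38.04 after AE, at 25.0, 23.8 and 24.5 after TE, at 35.5, 40.2 and 39.0 after SE, and at 23.3, 22.9 and 27.5 after HTyr. No treated library overlapped the untreated ones, and AE and SE overlapped each other, as did TE and HTyr. The log2 fold changes were 1.43 after AE, 1.29 after SE, 0.65 after TE and 0.65 after HTyr (standard error 0.090 each, largest adjusted p = 9.8e-05 by limma). The HTyr value was 0.57, under the fold limit, without HTyr replicate 3.

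The share of haem oxygenase beside the quinone reductase was lower after treatment, although both genes rose. The HMOX1 to NQO1 ratio was 0.0476 ± 0.0033 (SD, n = 3) in untreated cells, 0.0310 ± 0.0034 after AE, 0.0291 ± 0.0013 after TE, 0.0272 ± 0.0015 after SE and 0.0332 ± 0.0032 after HTyr. All 12 treated libraries lay below the 3 untreated ones, by 0.67 on the log2 scale in the mean (a difference of -0.67, exact permutation test, two-sided, p = 0.0044, adjusted p = 0.0044, again the smallest possible).

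Glutathione is made from cysteine, and the first and limiting step is carried out by an enzyme of 2 subunits, the catalytic GCLC and the modifier GCLM. Here the subunits parted. GCLM (ENSG00000023909, chromosome 1, 93885199 to 93909456, minus strand) stood at 16.6, 11.7 and 12.8 TPM untreated, 36.2, 37.5 and 38.04 after AE, 25.7, 20.5 and 21.0 after TE, 41.3, 51.6 and 51.0 after SE, and 30.5, 27.4 and 28.1 after HTyr. No treated library reached down to the untreated level, and the order was SE, AE, HTyr, TE and untreated. The log2 fold changes were 1.78 after SE, 1.43 after AE, 1.05 after HTyr and 0.70 after TE (standard error 0.12 each, largest adjusted p = 0.00073 by limma).

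GCLC (ENSG00000001084, chromosome 6, 53497341 to 53616970, minus strand) passed with no treatment. Its untreated libraries held 82.9, 73.6 and 66.3 TPM, against 120.1, 95.1 and 93.7 after AE, 72.7, 71.9 and 61.4 after TE, 92.2, 77.0 and 71.2 after SE, and 56.7, 44.6 and 52.6 after HTyr. AE lay above the untreated libraries, HTyr lay below them, and TE and SE overlapped them. The log2 fold changes were 0.46 after AE (95% interval 0.19 to 0.74, adjusted p = 0.011) and -0.53 after HTyr (interval -0.81 to -0.26, adjusted p = 0.0049). Without untreated replicate 3 or HTyr replicate 1 the value for HTyr was -0.61, past the fold limit.

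The GCLM to GCLC ratio was 0.184 ± 0.022 (SD, n = 3) in untreated cells, 0.367 ± 0.057 after AE, 0.327 ± 0.037 after TE, 0.611 ± 0.143 after SE and 0.562 ± 0.045 after HTyr. Every one of the 12 treated libraries lay above the untreated ones, and the mean difference was 1.29 on the log2 scale (exact permutation test, two-sided, p = 0.0044, adjusted p = 0.0044, the smallest possible). SE had the widest spread, with 1 library below and 2 above every HTyr library.

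**Figure D2:**
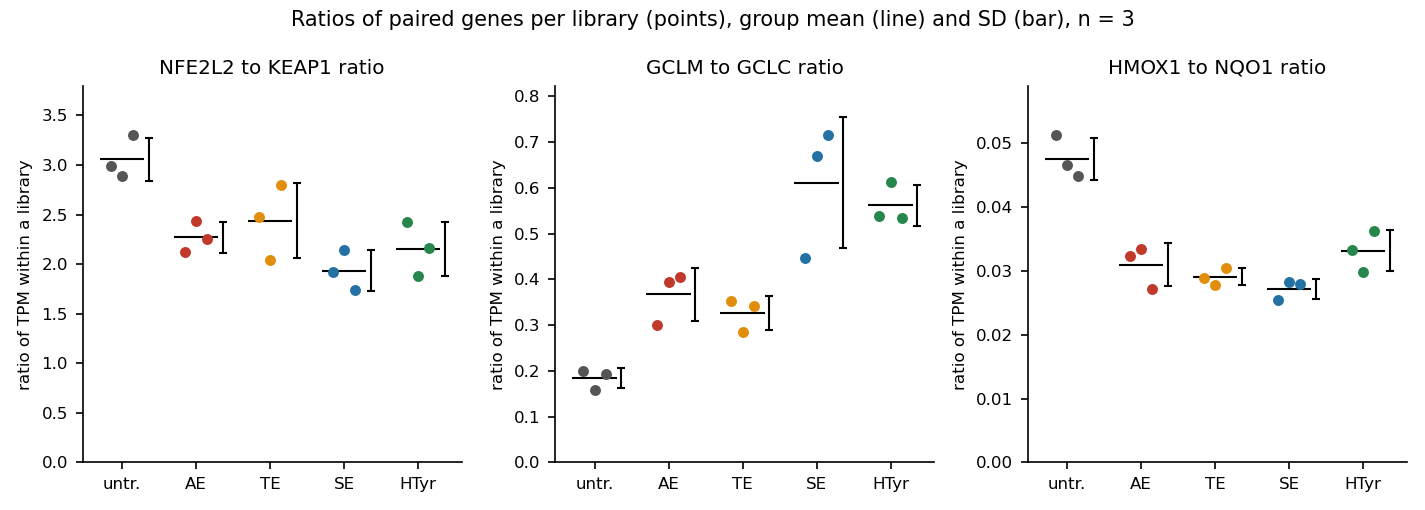
Ratios of TPM within each library for NFE2L2 to KEAP1, GCLM to GCLC and HMOX1 to NQO1 (vertical axes, from 0, no unit), by group. Points are libraries, lines are group means of 3 libraries and bars are SD. In all 12 treated libraries the NFE2L2 to KEAP1 and HMOX1 to NQO1 ratios are lower, and the GCLM to GCLC ratio is higher, than in the 3 untreated ones.

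SLC7A11 (ENSG00000151012, chromosome 4, 138164097 to 138242349, minus strand), which brings in the cystine from which glutathione is made, is a target of ATF4 as well as of NRF2. It stood at 36.4, 30.3 and 35.0 TPM untreated, 67.9, 73.5 and 70.0 after AE, 50.1, 47.9 and 50.1 after TE, 39.4, 47.8 and 40.5 after SE, and 43.1, 34.3 and 38.1 after HTyr. AE stood apart from all other groups, TE and SE lay just above the untreated libraries, and HTyr overlapped them. The gene rose after AE, by 1.05 on the log2 scale (adjusted p = 1.7e-06 by limma). After TE the log2 fold change was 0.54 (95% interval 0.34 to 0.74, adjusted p = 0.00062 by limma), which is under the fold limit and was 0.59 without untreated replicate 1. After SE it was 0.32 (interval 0.12 to 0.53) and after HTyr 0.18 (interval -0.02 to 0.38). SE was lower than AE by a log2 difference of -0.72 (standard error 0.094, adjusted p = 0.00014).

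The 2 enzymes of the thioredoxin and peroxiredoxin branch passed with no treatment. TXNRD1 (ENSG00000198431, chromosome 12, 104215779 to 104350307, plus strand), the reductase of thioredoxin, stood at 349, 317 and 317 TPM untreated, 379, 354 and 359 after AE, 249, 257 and 239 after TE, 355, 352 and 332 after SE, and 266, 253 and 292 after HTyr. TE and HTyr lay below the untreated libraries without overlap, at log2 fold changes of -0.40 (95% interval -0.53 to -0.27) and -0.28 (interval -0.41 to -0.15). AE gave 0.15 (interval 0.02 to 0.28) and SE 0.08 (interval -0.05 to 0.21), and the SE value was -0.03 under median-ratio scaling. A processed pseudogene, RPL18AP3, lies within the gene on the same strand and was listed at 51.6 to 103.5 TPM.

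SRXN1 (ENSG00000271303, chromosome 20, 646615 to 653200, minus strand), which repairs overoxidized peroxiredoxins, stood at 154, 113 and 126 TPM untreated, 126, 139 and 133 after AE, 111, 101 and 109.7 after TE, 91.1, 106 and 101 after SE, and 97.6, 88.9 and 93.9 after HTyr. Apart from AE, which overlapped the untreated libraries, each treatment lay below them. The log2 fold changes were 0.03 after AE (95% interval -0.18 to 0.24), -0.28 after TE, -0.39 after SE and -0.47 after HTyr (standard error 0.096 each, adjusted p = 0.0016 after HTyr).

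OSGIN1 (ENSG00000140961, chromosome 16, 83931311 to 83966332, plus strand), a growth inhibitor induced by oxidative stress, fell after TE and HTyr. Its untreated libraries were the most scattered of the 10 genes relative to their mean, at 28.1, 17.6 and 22.8 TPM. The level was 20.7, 19.4 and 21.9 after AE, 12.7, 11.8 and 13.4 after TE, 15.7, 14.1 and 15.2 after SE, and 9.54, 10.0 and 9.93 after HTyr. AE overlapped the untreated libraries and the other treatments lay below them. The log2 fold changes were -1.15 after HTyr (adjusted p = 1.2e-05 by limma), -0.81 after TE (adjusted p = 0.00026), -0.57 after SE (95% interval -0.83 to -0.30, not past the fold limit) and -0.12 after AE (interval -0.39 to 0.15), each with a standard error of 0.12. The value for SE passed under median-ratio scaling (-0.67), under quantile normalization, without untreated replicate 2 (-0.74) and without SE replicate 1 (-0.60). In the mean of the 4 treatments OSGIN1 was lower by a log2 value of -0.66, and by -0.50, under the fold limit, without untreated replicate 1. MLYCD overlaps the gene on the same strand at 2.12 to 4.30 TPM.

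**Figure D3:**
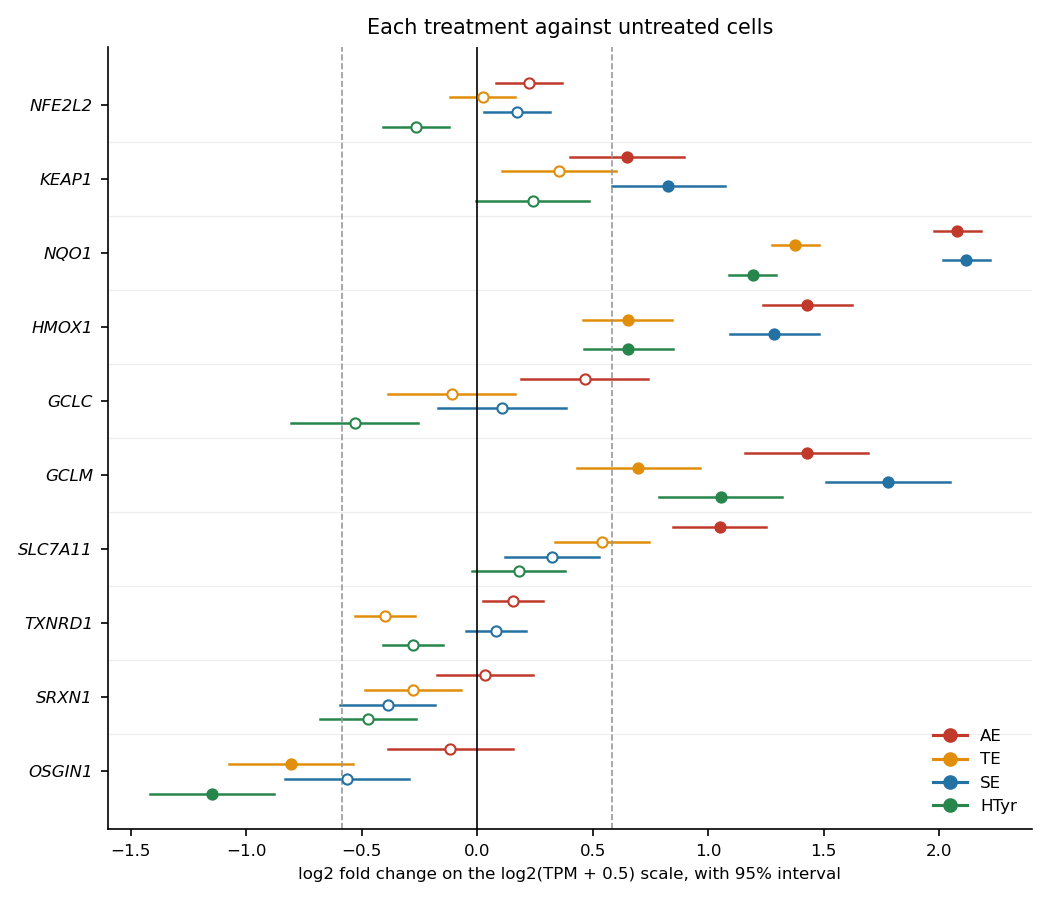
Log2 fold change of each of the 10 genes against untreated cells (horizontal axis, log2(TPM + 0.5) scale) after AE, TE, SE and HTyr. Points are estimates of limma from 3 libraries per group, bars are 95% intervals, filled points passed the test, and dashed lines mark the limit of 1.5-fold in each direction. NQO1, HMOX1 and GCLM are filled for every treatment, at 0.65 to 2.12, and OSGIN1 is filled on the left for TE and HTyr.

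Set directly against HTyr, AE had higher levels of 5 of the 10 genes and lower levels of none, where 0.899% of all genes were higher, 0.443% lower and 1.34% passed in either direction. At an unadjusted p under 0.05 all 10 were higher after AE, and for all 10 the AE and HTyr libraries did not overlap (29.6% of all genes did not). The 5 were OSGIN1 (log2 difference 1.03), GCLC (1.00), NQO1 (0.88), SLC7A11 (0.87) and HMOX1 (0.77), with a largest adjusted p of 0.0014 by limma. The median of all genes lay at 0.12 in this comparison, and under median-ratio scaling, which removes that shift, the genes that passed were 35 higher and 83 lower in place of 134 and 66, while 5 of the 10 genes still passed. Under that scaling GCLM gave 0.25 (adjusted p = 0.32 by limma) and KEAP1 0.28 (adjusted p = 0.19), so the count of all 10 depends in part on the scaling.

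SE also had 5 of the 10 genes above HTyr and none below, where 4.97% of all genes were higher, 2.38% lower and 7.36% passed. At an unadjusted p under 0.05 the counts were 8 and 0, and the libraries of 8 genes did not overlap, all higher after SE (41.5% of all genes did not overlap). They were NQO1 (0.93), GCLM (0.73), GCLC (0.64), HMOX1 (0.63) and KEAP1 (0.59), with a largest adjusted p of 0.0023 by limma. Here the median of all genes lay at 0.13. Under median-ratio scaling 2 of the 5 passed, NQO1 (0.79) and GCLM (0.59), and all genes that passed were 321 higher and 563 lower in place of 741 and 355. Under quantile normalization NQO1 alone passed, at 1.03, and without SE replicate 1 the count was 3.

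Between TE and HTyr none of the 10 genes passed by limma, where 0.705% of all genes did, 0.443% upward and 0.262% downward. At an unadjusted p under 0.05, 5 were higher and 1 was lower after TE, and at an adjusted p under 0.05 with no fold limit 1 was higher (NFE2L2, 0.29, 95% interval 0.15 to 0.43, adjusted p = 0.035). The lower one was GCLM, at -0.36 (interval -0.62 to -0.09, adjusted p = 0.13), and the interval for HMOX1 was -0.20 to 0.19. The libraries did not overlap for 6 genes that were higher and 1 that was lower after TE (25.2% of all genes did not).

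Few genes separated AE from TE, 13 in all or 0.0873% of those tested, of which 8 (0.0537%) were higher and 5 (0.0336%) lower after AE. The higher ones include 4 of the 10 genes: HMOX1 (log2 difference 0.78, adjusted p = 0.0026), GCLM (0.73, adjusted p = 0.028), NQO1 (0.70, adjusted p = 1.6e-05) and OSGIN1 (0.69, adjusted p = 0.042), by limma. All 10 genes were higher after AE at an unadjusted p under 0.05, and for 9 of them the libraries did not overlap (19.0% of all genes did not). NQO1 passed in every alternative. HMOX1 did not pass when the fit held the AE and TE libraries alone, GCLM was lost without any 1 of the AE libraries, without TE replicate 2 or 3, with the replicate block (adjusted p = 0.051 by limma), without a filter, without the trend and with only the groups compared. OSGIN1 was lost under both other scalings, in the same last 3 alternatives, and without most of the 15 libraries in turn. The number of the 10 genes that passed lay between 2 and 4 when single libraries were left out, and the number of all genes between 4 and 15.

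SE was above TE for 3 of the 10 genes and below it for none (4.70% of all genes were higher, 3.66% lower and 8.36% passed), with 6 higher and 1 lower at an unadjusted p under 0.05. Libraries did not overlap for 7 genes that were higher and 1 that was lower (41.5% of all genes did not). The 3 were GCLM (1.08), NQO1 (0.74) and HMOX1 (0.63), the last at 0.57 under median-ratio scaling, below the fold limit. From AE, SE differed past both limits in SLC7A11 alone, as given above, where 4.72% of all genes passed, 1.94% upward and 2.78% downward. At an adjusted p under 0.05 with no fold limit, 3 were lower and 0 higher after SE by limma. Besides SLC7A11 these were OSGIN1 (-0.45, adjusted p = 0.025) and SRXN1 (-0.42, adjusted p = 0.0084). Between SE and AE the other 9 genes had log2 differences from -0.45 (OSGIN1) to 0.35 (GCLM), and at an unadjusted p under 0.05 1 of the 10 was higher and 4 were lower, the same numbers as for libraries that did not overlap (32.7% of all genes did not).

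**Figure D4:**
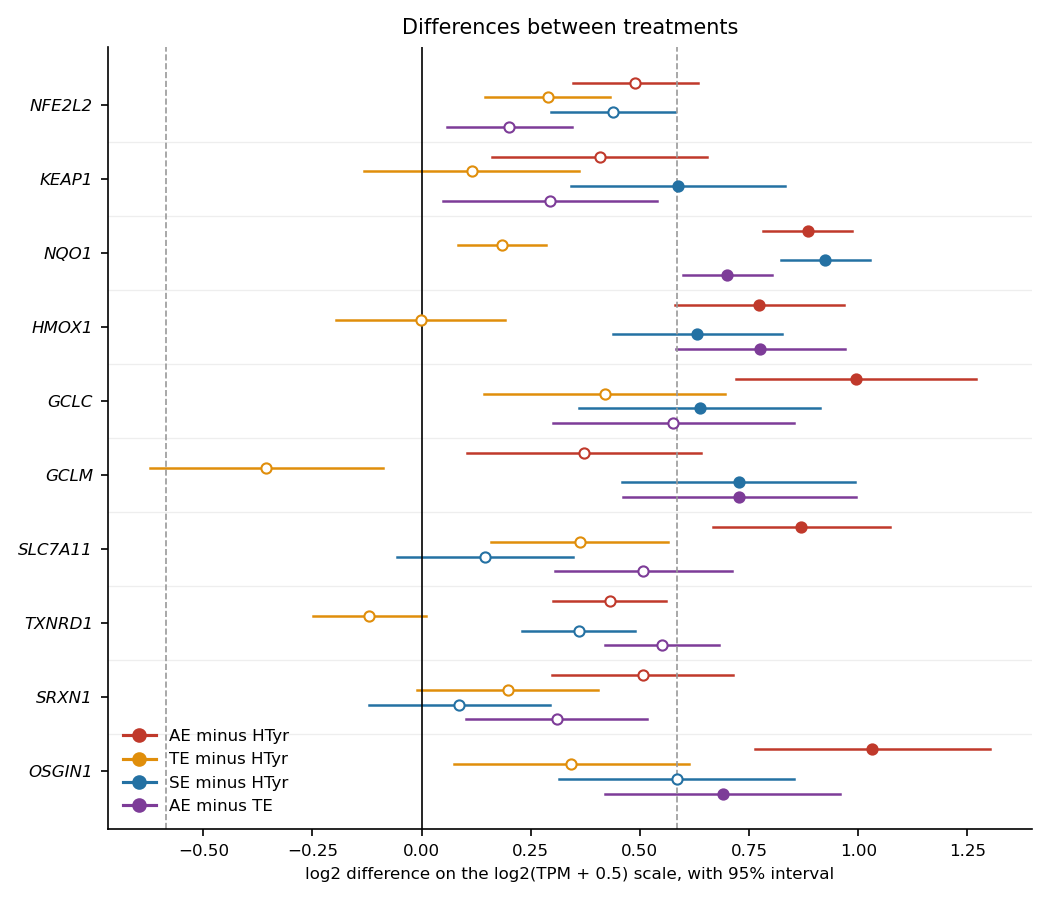
Log2 difference of each of the 10 genes between pairs of treatments (horizontal axis, log2(TPM + 0.5) scale). Points are estimates of limma from 3 libraries per group, bars are 95% intervals, filled points passed the test, and dashed lines mark 1.5-fold in each direction. The differences of AE from HTyr lie to the right of 0 for all 10 genes, from 0.37 (GCLM) to 1.03 (OSGIN1).

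A further list of 47 known or reported NRF2 targets was examined, of which 38 reached the level to be tested. In the mean of the 4 treatments 15 of the 38 rose and none fell (14 and 0 under median-ratio scaling, 13 and 0 under quantile normalization), against 10.4% of all genes that rose and 7.43% that fell, with a median log2 fold change of 0.39 against 0.05 over all genes. The counts were 15 up after AE (10.7% of all genes), 6 after TE (7.46%), 7 after HTyr (7.80%) and 20 after SE (17.0%), where ABCC3, a drug exporter, fell (-0.65). For the direction not seen, 0 of 38 fell after AE, TE or HTyr by limma. Some of the 38, named after their values were seen, met the filter only with the help of treated libraries, which favoured a rise. Their untreated levels were 0.29 to 1.02 TPM (AKR1C3), 0.71 to 1.01 (CBR3), 0.34 to 1.19 (ALDH3A1) and 0.84 to 1.43 (GSTA4).

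PGD, an NADPH-forming enzyme of the pentose phosphate pathway, rose from 64.2 to 120 TPM in the mean of the treated libraries (0.85, adjusted p = 2.3e-07 by limma), and GSTP1, a glutathione transferase, rose from 421 to 834 TPM (0.96, adjusted p = 4.9e-08). TALDO1, transaldolase of the same pathway, gave 0.51 (95% interval 0.42 to 0.59), under the fold limit, and passed after SE alone (0.76). Against HTyr, SE was higher for 11 of the 38 (6 higher and 1 lower under median-ratio scaling), where 4.97% of all genes were, AE for 4 (0.899% of all genes) and TE for 0 (0.443%) by limma.

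**Figure D5:**
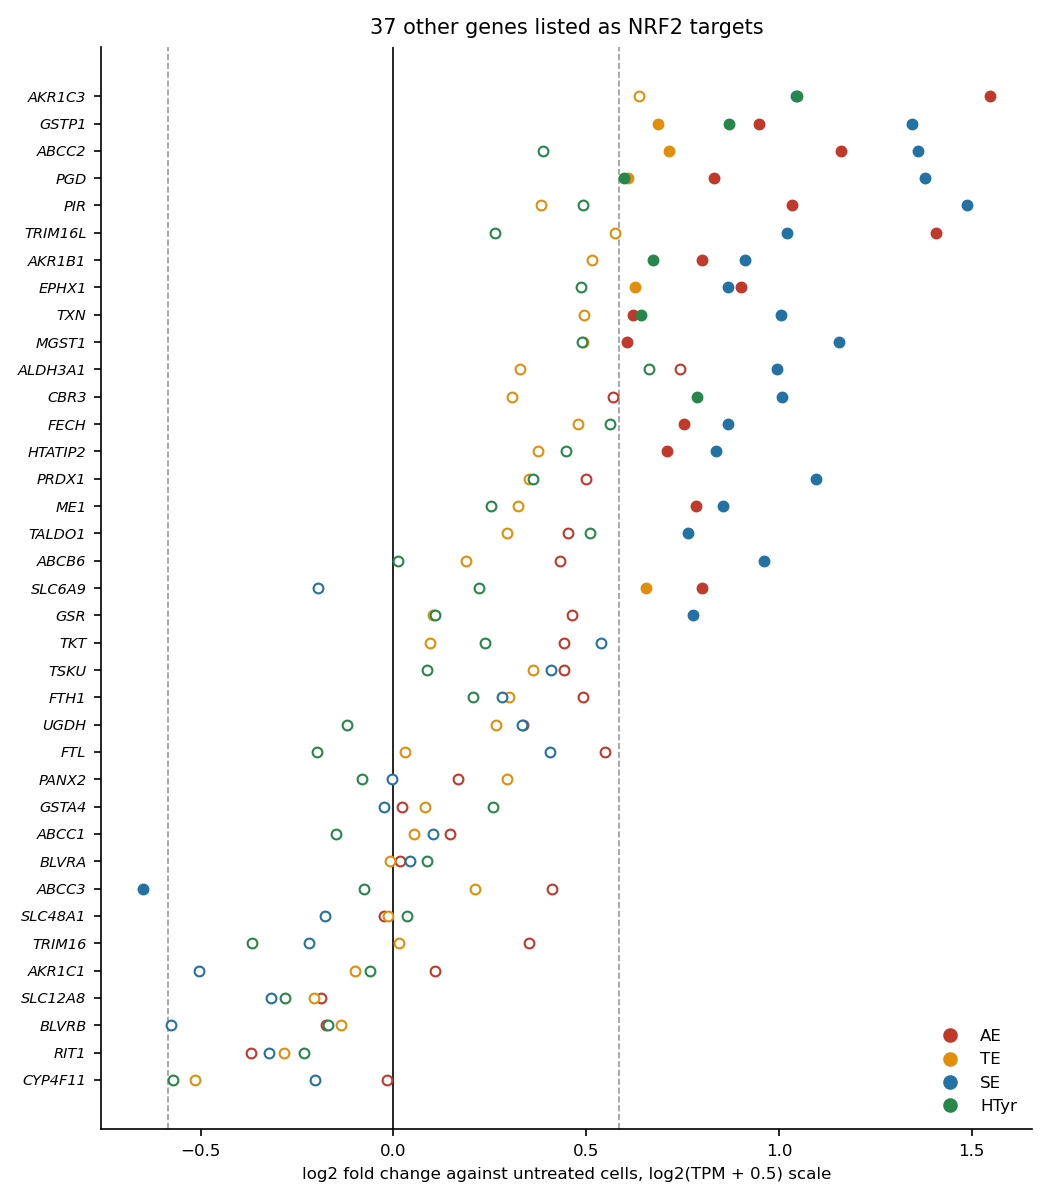
Log2 fold change against untreated cells (horizontal axis, log2(TPM + 0.5) scale) of 37 of the 38 tested genes of the further list of NRF2 targets, 1 row per gene, for AE, TE, SE and HTyr. Points are estimates of limma from 3 libraries per group, filled points passed the test, and dashed lines mark 1.5-fold in each direction. Filled points lie to the right for all but 1, that of ABCC3 for SE, and the medians of all 38 are 0.50 for AE, 0.30 for TE, 0.77 for SE and 0.25 for HTyr.

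Among 27 partners and regulators of NRF2, 1 rose and 2 fell in the mean of the 4 treatments, the same numbers under both other scalings and no larger a share than among all genes (10.4% and 7.43%). The counts were 1 and 2 after AE (10.7% and 5.81% of all genes) and 1 and 2 after TE (7.46% and 5.26%). After HTyr they were 0 and 4 (7.80% and 8.45% of all genes). After SE they were 4 and 4 (17.0% and 11.0% of all genes), with 2 and 4 under median-ratio scaling and 1 and 5 under quantile normalization. MAFF, one of the small MAF proteins that pair with NRF2 on DNA and that also form repressive dimers, stood at 33.0, 30.8 and 35.1 TPM untreated, 11.6, 12.1 and 12.5 after AE, 14.2, 13.5 and 12.4 after TE, 8.26, 7.66 and 8.77 after SE, and 13.2, 13.1 and 11.1 after HTyr. The groups did not overlap the untreated one, and the log2 fold change was -1.50 in the mean of the 4 treatments (standard error 0.068, adjusted p = 1.9e-09 by limma). The other small MAF genes, named after their values were seen, went opposite ways, and neither passed in that mean. MAFK had group means of 11.3 to 14.3 TPM after treatment against 18.4 untreated, and MAFG 25.5 to 31.7 against 23.5. The other gene that fell was BACH2 (-0.76), named after its value was seen, and the gene that rose was NFE2 (0.84), from a mean of 0.42 TPM to 1.16. Both were near the floor, and each met the filter only through the side where it was higher. NFE2 was at 0.28 to 0.58 TPM untreated. BACH2 reached 1 TPM in the untreated libraries (1.48 to 1.96) and, among the treated ones, only in HTyr replicate 1 (1.13). SQSTM1, which sequesters KEAP1, gave -0.28 in that mean (95% interval -0.38 to -0.18). Its group means were 272 TPM after TE, 267 after SE and 237 after HTyr against 338 untreated, while AE, at 344, was not lower. SKP1 (0.44) and FBXW11 (-0.34), parts of a second ligase that degrades NRF2, did not pass the fold limit in the mean, and SKP1 passed after SE alone (0.78, adjusted p = 1.3e-07 by limma).

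ATF4, the activator of the amino acid and stress response, shares SLC7A11 with NRF2, and its list of 23 genes divided the treatments. After AE 4 rose and 2 fell (10.7% and 5.81% of all genes), after TE also 4 and 2 (7.46% and 5.26%, with 2 and 2 under quantile normalization) and after HTyr 2 and 3 (7.80% and 8.45%, with 3 and 3 under median-ratio scaling and 1 and 4 under quantile normalization). After SE 0 rose and 12 fell by limma (17.0% and 11.0% of all genes), with 13 and 14 that fell under the other scalings. SE was below AE for 17 of the 23, below TE for 14 and below HTyr for 8 (17, 17 and 12 under median-ratio scaling), where 2.78%, 3.66% and 2.38% of all genes were lower, and above none of them in any of these comparisons by limma. DDIT3, the pro-apoptotic factor CHOP, fell with every treatment, from 518, 427 and 490 TPM untreated to 35.8, 42.1 and 45.8 after SE, a log2 value of -3.52, and by -1.40 to -1.51 with the others. ATF3, a stress-induced repressor, fell by a log2 value of -1.65 in the mean of the 4 treatments. PCK2, mitochondrial phosphoenolpyruvate carboxykinase, stood at 40.5, 41.4 and 49.6 TPM untreated, at 89.6 to 97.1 after AE, 83.7 to 88.0 after TE, 73.4 to 82.8 after HTyr and 37.9 to 38.6 after SE, so that AE, TE and HTyr were high and SE was not. Like SLC7A11 it was lower after SE than after AE, by a log2 difference of -1.28 (standard error 0.073, adjusted p = 1.1e-07 by limma). PSAT1, of serine synthesis, rose after AE (0.80) and TE (0.63) and gave 0.53 in the mean, under the fold limit. Its mean level after HTyr (293 TPM) was close to that after TE (304), against 196 untreated and 210 after SE.

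The aryl hydrocarbon receptor (AHR) is a second sensor of foreign compounds and can raise NQO1 by itself. Of 6 tested genes of its list, 4 rose in the mean of the 4 treatments, where 10.4% of all genes did, and these were CYP1A1 (2.52), AHRR (2.13), CYP1B1 (1.22) and TIPARP (1.21), the same number under both other scalings. CYP1A1 stood at 0.39 to 0.81 TPM untreated and 17.6 to 23.5 after SE. CYP1B1 was low throughout, at 0.29 to 0.33 TPM untreated and 2.96 to 3.22 after SE. Neither reached 1 TPM in any untreated library, and AHRR did not in untreated replicate 3. CYP1A1, CYP1B1 and AHRR therefore met the filter only through treated libraries, which favoured a rise in that count. AHRR, the repressor of the receptor, stood at 4.55 to 5.37 TPM after AE, 2.04 to 2.52 after TE, 11.6 to 13.2 after SE and 6.27 to 6.66 after HTyr, against 1.37, 1.94 and 0.07 untreated. The size of its change rested on the lowest untreated library, and the log2 value was 1.49 without that library (untreated replicate 3), still past the limits, and 2.80 with a pseudocount of 0.1. All 4 were higher after SE than after AE and after TE, whereas the NQO1 levels of SE and AE overlapped. The other 2 tested genes of the list, AHR itself and its partner ARNT, named after their values were seen, did not pass in the mean. ARNT was lower in every treated library (13.9 to 18.7 TPM) than in the untreated ones (21.0 to 23.8). AHR had group means of 15.9 to 21.0 TPM after treatment, highest after SE, against 15.8 untreated. The part of AHR in the NQO1 values was not tested.

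Of 10 heat shock genes, another response to modified proteins, 8 rose after SE, 5 after AE, 2 after TE and 1 after HTyr (7, 4, 2 and 2 under median-ratio scaling), where 17.0%, 10.7%, 7.46% and 7.80% of all genes rose, and 0 fell in any of them by limma. HSPA8, the constitutive HSP70, rose from 427, 450.4 and 412 TPM untreated to 1635, 1571 and 1555 after SE, and by a log2 value of 1.03 in the mean of the 4 treatments. HSP90AA1 (0.81) and HSPE1 (0.85) also rose in the mean, and HSPD1 gave 0.55, under the fold limit, and passed after SE alone. DNAJB1, named after its values were seen, went the other way without passing. Every treated library (68.0 to 85.8 TPM) lay below the untreated ones (91.0 to 97.9 TPM) for that gene. HSPA1A and HSPA1B, also on the list, are near-identical copies whose reads cannot be assigned with certainty.

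The genes whose group means followed those of 3 of the targets most closely were found among 14898 others by the root mean square difference of log2(TPM + 0.5) over the 5 groups, each gene centred on its own mean. For NQO1 they were TSKU-AS1 (0.118, listed at 0 in untreated cells), CHAC2 (0.158, from 4.02 TPM untreated to 13.8 after AE, 8.97 after TE, 16.7 after SE and 9.45 after HTyr) and PSMC3IP (0.165). For HMOX1 they were IPO5P1 (0.0509), BRCA1 (0.0808, from 10.3 TPM to 25.4, 17.2, 26.8 and 16.1 in the same order) and SPTSSB (0.0898). TSKU-AS1 had group means of 0.65 to 1.49 TPM after treatment, and IPO5P1 stood at 0.30 TPM untreated and 1.99 after AE. Both are so low that the added 0.5 shrinks their fold changes, and both met the filter only through treated libraries. For SLC7A11 they were ZNRF2P1 (0.0785) and NHSL1 (0.0953, from 4.58 TPM to 8.69, 6.56, 6.30 and 5.24). These are likenesses of 5 means among many genes and carry no test.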

How the data were processed

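RNA-seq of poly(A) RNA from HCT116 cells was analysed in 15 libraries, 3 for each of 5 groups. The authors trimmed the reads with Scythe and Sickle, used STAR for alignment to GRCh38 and RSEM for Ensembl gene abundance, and deposited TPM. No source used here gives the versions. TPM hold no depth.

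Libraries were assigned from the labels' descriptions. In a supplementary table of which 1539 genes were held, all 1539 values of each library matched its own column within 0.005 TPM, and at most 21 matched another.

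With R 4.3.3 and limma 3.58.1 (eBayes with trend, 10 residual and 3.42 prior degrees of freedom), the 14899 genes that reached 1 TPM in 3 or more libraries were tested on log2(TPM + 0.5), which understates changes of low genes. To pass, a gene needed a Benjamini-Hochberg adjusted p under 0.05 together with a change over 1.5-fold, the limits stated in the methods of the study. There were 11 comparisons: untreated cells against each treatment and against the mean of all 4, and 6 pairs of treatments. Each of 3 ratios was tested by exact permutation with SciPy 1.17.1, with 3 untreated against all 12 treated libraries. Scripts ran in Python 3.11.15 and were tested on simulated data. Symbols, coordinates and overlaps came from GENCODE 44. ARE cores were read from GRCh38 before the starts of RefSeq.

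The 10 genes are all named. From each other list the 4 genes of smallest adjusted p for the mean of all 4 treatments are named, and up to 3 that went against the list. A gene of the further NRF2 list and a gene with a pattern like that of SLC7A11 are not reported here. The genes and lists were chosen with earlier results of these data known. Alternatives were pseudocounts of 0.1 and 1, no filter, a filter at a mean of 5 TPM, scaling by median ratios or by quantiles, no mitochondrially encoded genes, no trend, only the groups compared, a replicate block, and each library left out.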

Additional observations from a re-analysis of the deposited data

How the results depend on the processing

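For the 10 genes in 11 comparisons, no difference that passed changed its direction in any of the alternatives, and 11 of the 39 that passed fell short in at least one. Of the 17 that passed for a single treatment against untreated cells, 2 did so, KEAP1 with AE and HMOX1 with HTyr. The number of the 10 genes that passed for SE against HTyr (5) was 2 under median-ratio scaling and 1 under quantile normalization, where all genes are set to a common centre, and 3 to 6 without single libraries. For AE against TE (4) it was 2 without a filter, 2 without the trend, 1 with only the groups compared, and 2 to 4 without single libraries. Counts over all genes moved by more than 1.5 times for the mean of the 4 treatments (2661, to 1768 at a mean of at least 5 TPM), AE against HTyr (200, to 126 at that mean, 118 under median-ratio scaling, 106 under quantile normalization and 46 with only the groups compared, and 75 to 244 without single libraries), TE against HTyr (105, to 63 without a filter and 33 with only the groups compared, and 54 to 107 without single libraries) and AE against TE (13, to 7 without a filter and 2 with only the groups compared, and 4 to 15 without single libraries). Fewer libraries or genes entered the last fits, and otherwise the cause was not tested. Differences that changed sign had not passed. Under median-ratio scaling and quantile normalization these were NFE2L2 with TE (-0.021 and -0.031) and in the mean of the 4 treatments (-0.016 and -0.048), GCLC with SE (-0.001 and -0.067), TXNRD1 with SE (-0.027 and -0.163), SRXN1 with AE (-0.062 and -0.067) and SRXN1 in SE against HTyr (-0.053 and -0.057). Without mitochondrially encoded genes they were HMOX1 in TE against HTyr (0.021) and GCLC in the mean of the 4 treatments (0.011). Without single libraries the ranges crossed 0 for NFE2L2 with TE (-0.034 to 0.055) and in the mean (-0.018 to 0.071), KEAP1 in TE against HTyr (-0.025 to 0.244), HMOX1 in TE against HTyr (-0.050 to 0.079), GCLC in the mean (-0.096 to 0.064), SRXN1 with AE (-0.071 to 0.155) and OSGIN1 with AE (-0.287 to 0.043). Same-numbered libraries did not deviate together (correlations of -0.209 to 0.263, 3 of 30 pairs over 0.1, against 14 of 60 for different numbers), and with the replicate number as a block 5, 4, 4 and 4 of the 10 genes passed for AE, TE, SE and HTyr against untreated cells and 3 for AE against TE. The 3 ratios had p = 0.0044 with a pseudocount and p = 0.016 with the block, the smallest it allows, by exact permutation. TPM give no counting error, so at low levels the spread between libraries alone limits precision.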
